A study of Mus musculus with 66 samples.

Results

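The genes described here encode the proteins of the cytosolic ribosome. They were all genes whose single platform symbol was Rpl or Rps followed by a number, with at most one a, x or l after it, together with Rplp0, Rplp1, Rplp2 and Rpsa; S6 kinases and pseudogenes were left out. The rule found 46 genes among the 18193 genes with a probe set of their own, 24 of the large (60S) subunit and 22 of the small (40S) subunit. A gene with more than 1 probe set was represented by the brightest of them on average over all 66 arrays.

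RNA from homogenized whole lung was hybridised to 1 Affymetrix array per sample. The mice were wild type (Nrf2+/+) or carried a deletion of Nrf2 (Nrf2-/-) with no tissue-specific driver named in the labels, and all dams and young had free access to the same feed. Lungs of both genotypes were taken before birth (at E13.5, then at E15.5 and E17.5, and last at E18.5), daily from birth (PND0) to PND4, and at PND14 and PND42, E and PND standing for embryonic and postnatal day, with 3 samples in each of the 22 groups. At E13.5, 2 to 3 lungs were combined in each sample, and every other sample was 1 lung. The study asked how age and the loss of Nrf2, the regulator of the oxidative stress response, shape the lung transcriptome.

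A ribosome is built from a small subunit, which reads the mRNA, and a large subunit, which joins the amino acids. The proteins of each subunit are assembled with ribosomal RNA in the nucleolus in roughly equal numbers, and growing, dividing cells make many more ribosomes than resting ones. Most ribosomal protein mRNAs begin with a run of pyrimidines, the terminal oligopyrimidine tract, by which the growth-sensing kinase mTOR controls their translation as a class. In the lung, organ growth by cell division dominates before birth and in the first weeks after it, and slows in the adult.

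The start sites show what these genes share in sequence. RefSeq promoter windows (GRCm38.p6, 250 bases before to 50 after a start site) were given for 40 of the 46 genes. At 19 of these 40 genes (47.5%), a stretch of at least 5 C or T could be read from a C within 5 bases of a listed start site, against 21.2% of the 27025 genes with a window. The windows below run from 20 bases before the start to 20 after it, 5′ to 3′ on the gene's strand, with that stretch in capitals, counted from the first such C to the end of the pyrimidines. In Rpl14, Rpl7a, Rpl12 and Rps26 the pyrimidines also go on upstream of the capitals. They are shown for genes that the results turn on, first 6 with the stretch and then 2 without it.
Rpl14: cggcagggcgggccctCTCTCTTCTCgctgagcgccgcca
Rpl27a: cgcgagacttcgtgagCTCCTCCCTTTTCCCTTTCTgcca
Rpl7a: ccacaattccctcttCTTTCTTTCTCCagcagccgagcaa
Rpl12: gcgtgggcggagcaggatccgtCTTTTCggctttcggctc
Rps18: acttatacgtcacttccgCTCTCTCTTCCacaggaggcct
Rps26: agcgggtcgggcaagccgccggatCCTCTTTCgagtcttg
Rpl11: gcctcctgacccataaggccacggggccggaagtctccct
Rpl6: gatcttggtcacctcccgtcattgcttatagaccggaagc

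Rpl14 lies on the plus strand at chr9:120571497-120571536, Rpl27a on the plus strand at chr7:109519175-109519214 and Rpl7a on the plus strand at chr2:26910787-26910826. Rpl12 lies on the plus strand at chr2:32961692-32961731, Rps18 on the minus strand at chr17:33955646-33955685 and Rps26 on the minus strand at chr10:128626487-128626526. Rpl11 lies on the minus strand at chr4:136053374-136053413 and Rpl6 on the plus strand at chr5:121204481-121204520. Each window covers the last bases of the promoter and the first bases of exon sequence. Both strands of the 300-base windows were also searched for 4 short motifs. The letters CCGGAAG, the core that ETS factors such as GABP bind, were in the windows of 20 of the 40 genes (50%) against 9.93% of all genes, and they can be read downstream of the start in the Rpl11 and Rpl6 windows. The core of the antioxidant response element that Nrf2 binds, TGACNNNGC, was in 9 of the 40 (22.5%) against 14.0% of all genes. AAGATGGC, which YY1 binds, was in 3 (7.5%) against 3.19%, and TATAAA in 5 (12.5%) against 15.7%. A match describes letters in the window and no binding was measured.

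Features of the arrays bear on all values below. The deposited signals of the 24 arrays of PND1 to PND4 had 2% trimmed means of 171.7 to 307.14, while those of the 42 arrays of the other 7 ages were all 500, so ages were compared only within one of these sets. Values are log2(signal + 16) after quantile normalization of all arrays, called levels here, and tests are contrasts of one limma model over the 22 group means with Benjamini-Hochberg adjustment over 45037 probe sets; a gene was called where the adjusted p was under 0.05. The main Nfe2l2 probe set, which reports the deleted gene, ran from 10.49 to 12.25 in wild type and from 4.41 to 8.26 in the knockout. A second probe set of Nfe2l2 overlapped between the genotypes (4.46 to 9.72 and 4.37 to 10.19) and over the 7 ages was higher in the knockout (0.67, adjusted p = 7.3e-05), and whether it lies outside the deleted part is not given in the sources used here. One wild-type PND14 library, replicate 2, stood apart from the other 2 of its group. Liver markers were high in some libraries, with a mean level over 8 in 7 of 12 wild-type and 1 of 12 knockout arrays of PND1 to PND4. The others were replicate 2 of wild-type E13.5 and replicates 1 and 2 of the knockout group labelled E17.5. The wild-type change from E13.5 to PND42, the genotype average over PND1 to PND4 and some single genes are also given without them. Single steps before birth and the E13.5 genotype counts are not. Of the 14 measured markers of lung epithelium, Sftpc had group means of 11.34 to 14.80 and Epcam of 9.80 to 12.38. Others were low in some groups. Nkx2-1 ran from 6.34 to 8.22, Foxj1 from 5.26 to 9.33 and Sftpd from 5.70 to 14.01.

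The probe sets of the genes fell into 2 ranges of brightness. Those of 34 genes had mean levels of 12.83 to 14.94, and 33 of these lay in the brightest 1% of all probe sets. On single arrays the median of the 34 sat between the 99.61th and the 99.91th percentile. The other 12 genes, Rpl12, Rpl14, Rpl27a, Rpl37, Rpl39, Rpl39l, Rpl3l, Rps16, Rps25, Rps27, Rps4l and Rps6, had probe sets with mean levels of 4.38 to 10.33. For 9 of these 12 the gene was also listed by probe sets that name several genes, which the rule does not use, so a dim probe set is not evidence of a weakly expressed gene. The division was made after the values were seen and is only a description.

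Wild-type lungs held lower levels of most ribosomal protein mRNAs at PND42 than at E13.5. Of the 46 genes, 34 fell and 1, Rpl27a, rose, against 28.2% of all genes that were lower and 25.7% that were higher. The median difference over the 46 genes was -0.32, against -0.06 over all genes. Both subunits took part: 19 of 24 large-subunit genes and 15 of 22 small-subunit genes fell. Among the 34 bright genes 27 fell, with a median of -0.27 and a range from -1.06 to 0.05. Without the libraries high in liver markers 32 fell and 1 rose, against 26.1% and 24.2% of all genes. In bulk tissue, fewer cells of a type and less RNA per cell cannot be told apart.

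**Figure D1:**
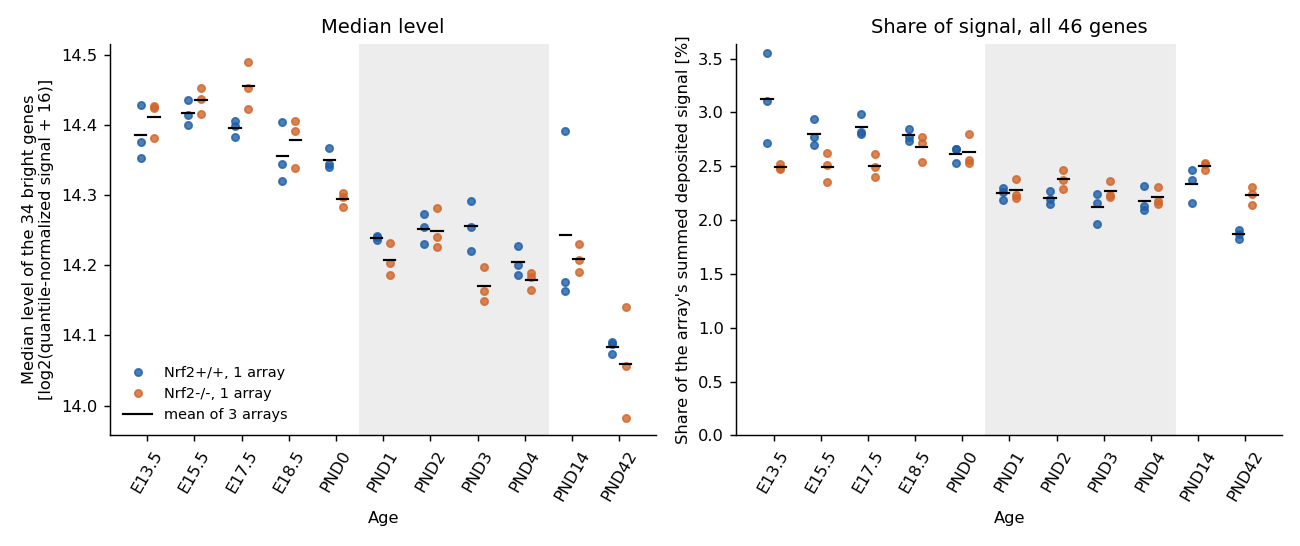
Left, the median level of the 34 bright genes on each array, on the log2(quantile-normalized signal + 16) scale; right, the share of each array's summed deposited signal, in percent, taken by all 46 genes. Points are single arrays by age and genotype, bars are means of 3 arrays, and the grey band marks PND1 to PND4, which were scaled apart; in both panels wild type is lower at PND42 than at E13.5, and in the right panel the 3 wild-type PND42 arrays lie between 1.83% and 1.91%.

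The deepest falls were in dim probe sets. Rpl14, a large-subunit protein, was at 10.66, 10.24 and 10.46 in wild type at E13.5 and at 7.94, 7.22 and 7.60 at PND42. The groups did not overlap, and the level fell by 2.87 ± 0.21 (SE, n = 3 per age; 7.30-fold; adjusted p = 8e-17). Rpl37, a small zinc-binding protein of the large subunit, was at 10.95, 11.45 and 10.78 and then at 8.85, 9.05 and 8.74, a difference of -2.18 ± 0.23 (4.53-fold; adjusted p = 7.1e-12). Rpl12, part of the base of the stalk that recruits elongation factors, was at 9.63, 9.30 and 9.23 and then at 7.45, 7.52 and 6.87, a difference of -2.11 ± 0.23 (4.31-fold; adjusted p = 3.2e-11). All 3 genes were lower in every PND42 library than in any E13.5 library.

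Rps4l, an autosomal relative of the X-linked small-subunit gene Rps4x, was at 11.38, 11.00 and 11.38 at E13.5 and at 9.81, 9.23 and 8.97 at PND42. It fell by 1.92 ± 0.22 (3.78-fold; adjusted p = 1.4e-10). Rps6, the S6 kinase substrate of the small subunit, was at 10.83, 10.79 and 10.86 and then at 9.59, 9.59 and 9.67, a difference of -1.21 ± 0.20 (adjusted p = 1.2e-06). Rps25, which sits on the head of the small subunit, was at 10.35, 10.22 and 10.20 and then at 9.19, 9.08 and 9.07, a difference of -1.15 ± 0.18 (adjusted p = 2.4e-07). Rpl39l, a relative of Rpl39 known from the testis, was called at -1.82 (adjusted p = 0.0016), but its E13.5 values were 6.33, 9.36 and 6.38. Without the library at 9.36, which was also the one high in liver markers, the difference was -0.81 and was not called (adjusted p = 0.16).

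Falls of bright genes were smaller and tighter. Rpl11, which with Rpl5 and the 5S rRNA binds Mdm2 when ribosome assembly is disturbed, was at 13.86, 13.90 and 13.94 at E13.5 and at 12.74, 13.02 and 12.74 at PND42. It fell by 1.06 ± 0.09 (2.09-fold; adjusted p = 2.3e-14), the largest fall of the 34. Rpl10a fell by 0.70 ± 0.07, from 14.33, 14.10 and 14.33 to 13.58, 13.53 and 13.57. Rpsa, the small-subunit protein also known as the laminin receptor precursor, fell by 0.69 ± 0.09, from 14.47, 14.33 and 14.57 to 13.88, 13.68 and 13.74. Rps26, which contacts the mRNA ahead of the start codon, fell by 0.68 ± 0.07, from 14.09, 14.14 and 14.07 to 13.40, 13.32 and 13.55. Every one of these values at PND42 lay below every value at E13.5.

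Rps19, which is mutated in Diamond-Blackfan anaemia, was at 13.94, 13.89 and 13.93 and then at 13.38, 13.39 and 13.45, a difference of -0.51 ± 0.06 (adjusted p = 1.3e-09). The stalk protein Rplp0 fell by 0.23 ± 0.06 (adjusted p = 0.00039), from 14.68, 14.62 and 14.53 to 14.40, 14.39 and 14.33, and its partner Rplp2 was called as well. Rplp1 and Rpl5 are among 28 genes of the rule's naming that were listed only by probe sets naming several genes, and they are not reported. The 11 genes that were not called ran from -0.46 for Rps27 to 1.24 for Rpl3l. Rps24, at 14.45, 14.39 and 14.49 and then at 14.42, 14.34 and 14.40, and Rpl38, at 14.75, 14.63 and 14.73 and then at 14.69, 14.62 and 14.68, had overlapping groups.

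One gene was called higher. Rpl27a, a large-subunit protein, was at 6.69, 8.02 and 7.79 at E13.5 and at 8.04, 8.54 and 8.47 at PND42, a rise by 0.85 ± 0.34 (adjusted p = 0.038). The 2 groups nearly touched, since the lowest PND42 value was 8.04 and the highest E13.5 value 8.02. The call was lost without any one of replicate 1 of E13.5, replicate 2 of PND42 or replicate 3 of PND42, with adjusted p up to 0.36 and differences of 0.44 to 1.11, and a second probe set of the gene gave -0.52. In the knockout the same probe set fell by 0.96 ± 0.34 (adjusted p = 0.017), from 8.61, 9.14 and 8.39 to 7.66, 7.77 and 7.82.

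Other probe sets of the same genes gave a second reading. The 46 genes had 100 probe sets in all, and of the 54 not used above 39 were lower at PND42 in wild type and 0 higher, with a median of -0.55. Of the 110 probe sets that name several genes and list a gene of the rule, 74 were lower and 3 higher, with a median of -0.38. Probe sets of one gene disagreed in size: the 6 of Rps10 ran from -3.79 to -0.17 and the 4 of Rpl13a from -2.33 to -0.26, all of them lower. The 3 of Rpl37a ran from -1.92 to 0.07, and only 1 of them was called. The 6 of Rps24, whose brightest was not called above, ran from -1.06 to -0.06, and 4 of them were called lower. The 2 of Rps6 were at -1.21 and -0.35, and 1 of them was called.

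In Nrf2-/- lungs the same comparison called 31 genes lower and 1 higher, against 26.1% and 27.8% of all genes. The median over the 46 genes was -0.39, against 0.06 over all genes. The gene called higher was Rps14, at 14.35, 14.39 and 14.33 at E13.5 and at 14.42, 14.54 and 14.53 at PND42, a rise by 0.14 ± 0.05 (adjusted p = 0.034); in wild type it was at 14.52, 14.53 and 14.30 and then at 14.53, 14.48 and 14.48 and was not called. The differences of Rpl14 (-2.05 ± 0.21), Rpl12 (-2.44 ± 0.23), Rps4l (-2.24 ± 0.22) and Rpl37 (-1.06 ± 0.23) were again falls. Rpl11 fell by 0.60 ± 0.09.

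**Figure D2:**
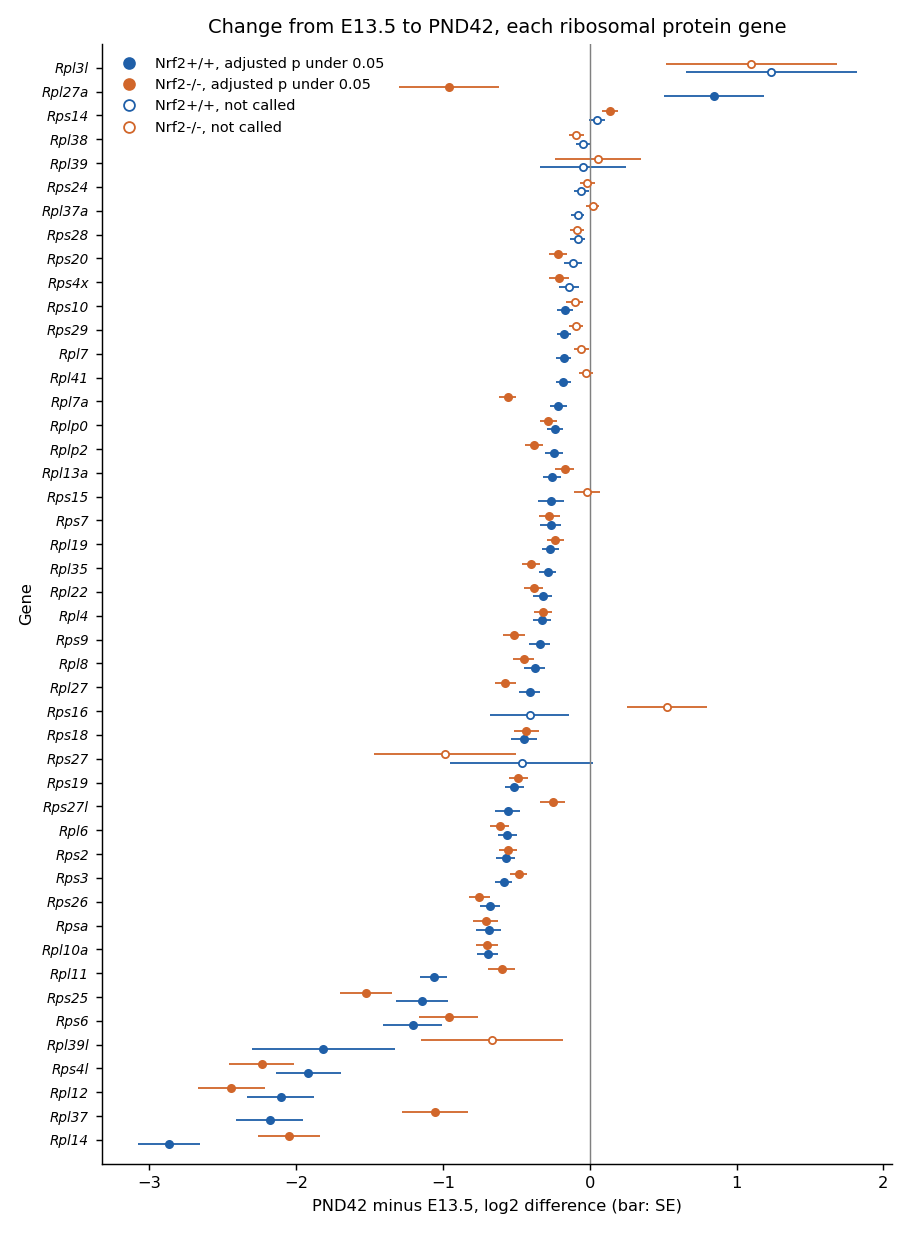
PND42 minus E13.5 for each of the 46 genes, as the log2 difference with its SE, in wild type (blue) and in the knockout (orange); filled points passed an adjusted p of 0.05. Most points lie left of 0 in both genotypes, Rpl14 lies lowest in wild type at -2.87, and Rpl27a lies on opposite sides of 0 in the 2 genotypes.

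The size of these falls depended on how the arrays were scaled, and for the bright genes this matters most, because quantile normalization fixes the values that the top ranks can take. On the deposited signals, the median of the 34 bright genes was at 34578, 40277 and 28344 on the wild-type E13.5 arrays and at 16994, 16829 and 17827 at PND42. On the knockout arrays the first value was 25372, 26110 and 25546 at E13.5. The 46 genes took 3.10%, 3.55% and 2.72% of the summed signal in wild type at E13.5 and 1.87%, 1.83% and 1.91% at PND42. In the knockout they took 2.48%, 2.52% and 2.48% and then 2.14%, 2.31% and 2.25%. Wild-type replicates 1 and 2 of E13.5 were thus above all other arrays in this share.

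Fitted to the deposited values, the wild-type comparison called 41 genes lower and 2 higher, against 28.1% and 25.7% of all genes, with a median of -0.90, and all 34 bright genes were lower. With the median of each array subtracted it called 41 lower and 1 higher, against 30.6% and 23.8%, with a median of -0.98. In the knockout the deposited values gave 23 lower and 2 higher, against 25.3% and 29%, with a median of -0.32. Median subtraction gave 28 lower and 1 higher, against 28.8% and 25.4%, with a median of -0.44. The direction of the median was therefore the same under the 3 scalings in both genotypes. Its size in wild type ran from -0.32 under quantile normalization to -0.98 with array medians subtracted.

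**Figure D3:**
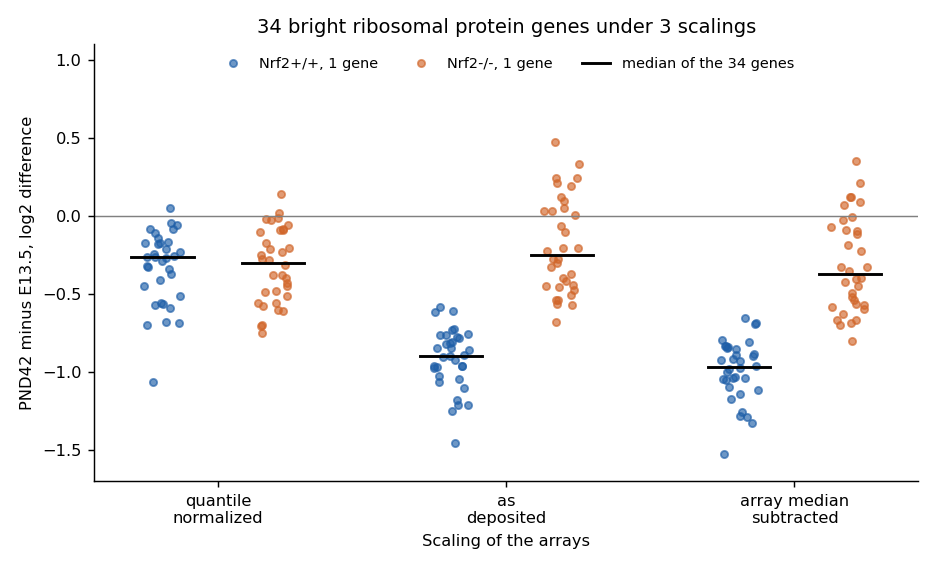
PND42 minus E13.5 for the 34 bright genes, as log2 differences, under 3 scalings of the arrays; each point is a gene, blue for wild type and orange for the knockout, and each bar is the median of the 34 genes. Quantile normalization puts the genotypes' medians side by side, at -0.27 and -0.30, while the deposited values put wild type at -0.90 and the knockout at -0.25.

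A difference between the genotypes in this fall was tested directly. Under quantile normalization 4 of the 46 genes were called, against 4.47% of all genes in either direction: Rpl37 and Rpl11 fell less in the knockout, by 1.12 ± 0.32 (adjusted p = 0.028) and 0.46 ± 0.13 (adjusted p = 0.026), and Rpl7a fell further there, with a difference of -0.34 ± 0.08 (adjusted p = 0.0068). Rpl27a, which rose in wild type and fell in the knockout, differed by -1.81 ± 0.48 (adjusted p = 0.015). On the deposited values 31 genes were called as falling less in the knockout, 30 of them bright, and 1 as falling further, against 3.35% and 0.819% of all genes. With array medians subtracted 27 were called as falling less there, 26 of them bright, and 1 as falling further, against 2.91% and 1.06%. Whether the ribosomal protein genes as a class fell further in wild type thus rested on the scaling, and the 2 wild-type E13.5 arrays with the highest share lie at one end of it. The scaling target and the RNA input of the arrays were not tested.

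RNA integrity also moved with age. The ratio of the 3′ to the 5′ Gapdh control probe sets was 0.89, 0.89 and 0.77 in wild type at E13.5, 1.84, 1.18 and 2.01 at PND14 and 1.37, 1.05 and 1.16 at PND42. Its highest values were in the knockout at PND14, at up to 2.60. Its part in the age differences was not tested.

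Under quantile normalization most calls of the single steps came after birth, but the timing depended on the scaling. In wild type the steps before birth called few of the 46 genes: 1 higher and 0 lower from E13.5 to E15.5 (all genes 6.4% and 4.44%), 0 higher and 3 lower from E15.5 to E17.5 (12.1% and 12.5%), and 0 and 0 from E17.5 to E18.5 (1.07% and 0.77%). From E18.5 to PND0 it was 0 higher and 1 lower (3.26% and 2.47%). From PND0 to PND14, 0 were higher and 12 lower (9.01% and 7.86%), and from PND14 to PND42, 0 were higher and 15 lower (9.55% and 10.5%). The genes called before birth were Rps20 (0.19, adjusted p = 0.047, which was lost without any one of the 6 libraries), Rpl14 (-1.18 ± 0.21, adjusted p = 3.3e-05), Rps25 (-0.76 ± 0.18, adjusted p = 0.0011) and Rpsa (-0.30 ± 0.09, adjusted p = 0.01, but 0.06 without replicate 3 of E17.5). Rps4l fell by 1.08 ± 0.22 at birth (adjusted p = 0.0011).

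With array medians subtracted, the wild-type step from E13.5 to E15.5 had 0 genes higher and 3 lower (all genes 5.1% and 4.83%), with a median over the 46 genes of -0.22. The step from E15.5 to E17.5 had 0 higher and 6 lower (7.72% and 19.5%), with a median of -0.18, against -0.18 over all genes. From PND0 to PND14 it was 1 higher and 2 lower (16% and 3.8%), with a median of 0.02 in place of -0.11, and from PND14 to PND42 0 higher and 30 lower (6.69% and 12%), with a median of -0.41.

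After birth, Rps27 fell by 1.59 from PND0 to PND14 (adjusted p = 0.02), Rpl14 by 1.01 (adjusted p = 6e-04) and Rps19 by 0.39 (adjusted p = 1.8e-05). From PND14 to PND42 the deepest falls were those of Rpl37 by 0.71 (adjusted p = 0.025), Rpl11 by 0.64 (adjusted p = 1.4e-06) and Rps18 by 0.53 (adjusted p = 1.2e-05). The call of Rps27 was lost without replicate 2 or 3 of PND0 or replicate 3 of PND14 (adjusted p up to 0.16). That of Rpl37 was lost without replicate 1 or 2 of PND14 or replicate 1 or 3 of PND42 (adjusted p up to 0.22). The split between the 2 steps rested on single PND14 libraries. Replicate 2, whose bright genes had a median of 14.39 against 14.18 and 14.16, lay near the values of PND0, which were 14.34, 14.35 and 14.37. In that library the thymocyte markers had a mean level of 11.89 against 6.26 and 9.11 in replicates 1 and 3, the cell cycle genes 11.19 against 8.78 and 9.19, and the lung epithelial markers 11.78 against 12.73 and 12.56. Their part in the split was not tested. Without replicate 2, 18 genes were lower and 1 higher from PND0 to PND14, where 17.1% of all genes were called in either direction. From PND14 to PND42 8 were then lower and 0 higher (12.9%). The first step called 7 lower without replicate 1 of PND14 (19.4%) and 5 without replicate 3 of PND14 (15.1%). It called 6 lower without replicate 2 of PND0 (14.9%), and the second step 9 without replicate 3 of PND42 (14.9%).

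The knockout groups labelled E17.5 and E18.5 ran against the order of their ages. The mean level of the cell cycle genes was 10.07, 9.76 and 9.68 in the group labelled E17.5 and 11.02, 10.64 and 10.61 in that labelled E18.5, while in wild type its group means went from 10.26 to 9.63. The lung epithelial markers were at 12.32, 12.31 and 12.36 and then at 11.39, 11.87 and 11.89, against 11.94 and 12.41 in wild type. Steps that use these groups are given by their labels.

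In the knockout the steps before birth called 0 higher and 3 lower from E13.5 to E15.5 (all genes 2.61% and 1.48%), 1 higher and 4 lower from E15.5 to E17.5 (17.4% and 15.9%), and 0 and 0 from E17.5 to E18.5 (2.85% and 4.24%). From E18.5 to PND0 it was 0 higher and 8 lower (14.6% and 19.3%), among them Rpl12 (-1.13), Rps25 (-0.85) and Rpsa (-0.43). From PND0 to PND14, 4 were higher and 17 lower (22.2% and 12.4%), and from PND14 to PND42, 0 were higher and 11 lower (6.94% and 8.23%). The 4 higher genes were Rpl3l, Rpl27a, Rps25 and Rpsa. The step at birth called 5 lower without replicate 2 or without replicate 3 of PND0, with 29.7% and 28.9% of all genes called in either direction. The next step called 11 lower and 3 higher without replicate 3 of PND14 (29.4%). The later step called 5 genes lower without replicate 2 or without replicate 3 of PND42 (11.6% and 11.2%). With array medians subtracted, the knockout step from PND0 to PND14 had 14 higher and 3 lower genes (30.9% and 7.51%) and a median of 0.11 in place of -0.13, so its direction was not independent of the scaling.

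Across the first days after birth few of the genes were called. From PND1 to PND4, wild type had 1 gene higher and 2 lower (all genes 7.31% and 6.1%), and the knockout had 0 higher and 1 lower (4.9% and 6%). Rps19 was the gene lower in both, at -0.33 ± 0.06 (adjusted p = 0.00027) in wild type and -0.29 ± 0.06 (adjusted p = 0.002) in the knockout. Rps15 (-0.29, adjusted p = 0.023) and Rps27l (0.25, adjusted p = 0.046) were called in wild type alone, and both calls were lost without single libraries, Rps27l without any one of the 6. On the deposited values and with array medians subtracted, no gene was called in wild type. Array medians subtracted did call 9 lower and 0 higher in wild type from PND1 to PND2 (all genes 9.66% and 1.26%), with a median of -0.32 against -0.21 over all genes. Without the libraries high in liver markers, which leaves 1 wild-type array at PND1, Rps19 was at -0.29 in wild type from PND1 to PND4. The cell cycle genes moved in this window: 20 of 21 rose in wild type, with a median of 2.36, and 21 of 21 in the knockout, with a median of 2.296.

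Most genes around the ribosome were lower at PND42 too. Their sizes are from quantile-normalized values and were not tested against those of the ribosomal protein genes, whose own median ran from -0.32 to -0.98 with the scaling. All counts below are for wild type from E13.5 to PND42, and the background is the 28.2% lower and 25.7% higher given for that comparison. Of 31 factors of ribosome biogenesis, 29 were lower (median -1.45), among them Nop56 (-2.37) and Fbl (-2.23), core proteins of the particles that methylate ribosomal RNA, and Npm1 (-2.03), a nucleolar chaperone. Of 28 translation initiation factors 24 were lower and 1, the helicase Eif4a2 (0.80), was higher, with Eif4e, which binds the mRNA cap, at -1.59. Of 9 elongation factors 7 were lower (median -0.38), and Eef1a1, which brings the aminoacyl-tRNA, was at -0.11 (adjusted p = 0.057).

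Of 76 mitochondrial ribosomal proteins, 74 were lower, with a median of -0.86. Of 9 other mRNAs with a terminal oligopyrimidine tract 6 were lower (median -0.75), and Tpt1 (0.03) and Pabpc1 (0.11) were not called. Among 15 growth regulators of translation 9 were lower and 2 higher. Myc, which drives ribosome synthesis, fell by 3.01 (adjusted p = 4.7e-11) and Mycn, its relative in embryonic tissue, by 1.53 (adjusted p = 2.5e-09). All 21 measured cell cycle genes were lower (median -3.53), with Mki67 at -3.31. In the same libraries 13 of 14 lung epithelial, 7 of 7 endothelial and 8 of 10 immune cell markers were higher, with medians of 4.81, 2.38 and 2.47. The part of these changes in cell makeup in the fall of the ribosomal protein genes was not tested.

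The genes varied together in wild type, with exceptions. Over the 21 wild-type arrays of the 7 ages, the median correlation between 2 bright genes was 0.71 over 561 pairs, with a range from -0.70 to 0.97. These arrays share the ages, and each pair shares libraries, so this is a description. Rpl6 (r = 0.98), Rpl10a (0.96), Rpl27 (0.95) and Rps3 (0.94) followed the median of the others most closely. Rpl3l (-0.72), Rps14 (-0.44), Rpl27a (-0.33) and Rpl39 (0.03) did so least.

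Genes with a close relative were read pair by pair. Rps4x, the X-linked small-subunit gene, was at 14.45, 14.48 and 14.35 at E13.5 and 14.27, 14.29 and 14.30 at PND42 in wild type and was not called (-0.14, adjusted p = 0.096), while Rps4l fell as above. Rps27 was at 8.75, 7.83 and 7.97 and then at 7.71, 8.09 and 7.36 (-0.46, adjusted p = 0.49). Its relative Rps27l, which p53 can induce, fell by 0.56 ± 0.08 (adjusted p = 1.7e-07) from 13.33, 12.99 and 13.28 to 12.64, 12.60 and 12.69. Rpl39 was at 8.65, 8.44 and 8.31 and then at 8.31, 8.31 and 8.62 and was not called (adjusted p = 0.92).

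Rpl3l, the muscle form of Rpl3, was dim throughout, at 4.39, 4.58 and 4.42 in wild type at E13.5 and at 5.73, 6.46 and 4.90 at PND42. Rpl22 was called lower (-0.32), and so was its relative outside the rule, Rpl22l1 (-0.76 ± 0.11, adjusted p = 4.2e-08). Rpl7 was at -0.18 ± 0.05 (adjusted p = 0.0026) and its relative Rpl7l1 at -1.14 ± 0.08 (adjusted p = 2.2e-17). The 3 probe sets of Rpl7 ran from -1.18 to -0.18 and the 3 of Rpl22 from -1.16 to -0.32, all called lower. How far Rpl7 and Rpl22 fell beside their relatives thus depended on the probe set. Rpl3, the partner of Rpl3l, was listed only by probe sets naming several genes.

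Few of the genes differed between the genotypes when the ages of one array set were averaged. Over the 7 ages scaled alike, 2 were higher and 3 lower in the knockout, against 3.52% and 2.95% of all genes, and the median over the 46 was -0.01. Rpl37 (0.35 ± 0.09, adjusted p = 0.0057) and Rpl10a (0.12 ± 0.03, adjusted p = 0.0027) were higher. Rps4l (-0.35 ± 0.08, adjusted p = 0.0037), Rps26 (-0.10 ± 0.03, adjusted p = 0.011) and Rplp0 (-0.07 ± 0.02, adjusted p = 0.038) were lower. Rps4l was at -0.28 and not called without E17.5 and E18.5 (adjusted p = 0.07). Rpl10a was not called on the deposited values (0.03) or with array medians subtracted. Rplp0 was not called without any one of 17 of the 42 libraries.

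At PND1 to PND4, 6 genes were higher and 2 lower in the knockout, against 7.8% and 8.4% of all genes, so the share of these genes was near the background. Rpl14, read from only 1 dim probe set, was the largest rise. Its wild-type levels were 7.57, 7.82 and 7.81 at PND1, 8.10, 7.67 and 7.90 at PND2, 8.46, 8.05 and 7.95 at PND3 and 8.02, 8.08 and 8.15 at PND4. In the knockout it was at 8.54, 9.02 and 9.14, at 9.05, 9.47 and 8.67, at 8.85, 8.23 and 9.0 and at 8.79, 8.56 and 8.66. The groups overlapped only at PND3, and the average difference was 0.86 ± 0.11 (1.82-fold, n = 12 per genotype; adjusted p = 2.5e-08).

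Rps4l, also read from only 1 dim probe set, went the other way. Its wild-type levels were 10.25, 9.98 and 10.06 at PND1, 9.91, 9.72 and 10.27 at PND2, 10.64, 10.11 and 10.36 at PND3 and 10.61, 9.80 and 10.17 at PND4. In the knockout they were 9.12, 9.48 and 9.01, then 8.90, 8.42 and 8.56, then 9.95, 9.64 and 9.52 and then 9.67, 9.80 and 9.21. No knockout value was above a wild-type value of the same age. The average difference was -0.88 ± 0.11 (1.85-fold lower; adjusted p = 3.6e-08). On the deposited values Rpl14 was at 0.68 (adjusted p = 1.1e-05) and Rps4l at -0.95 (adjusted p = 2.5e-08).

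**Figure D4:**
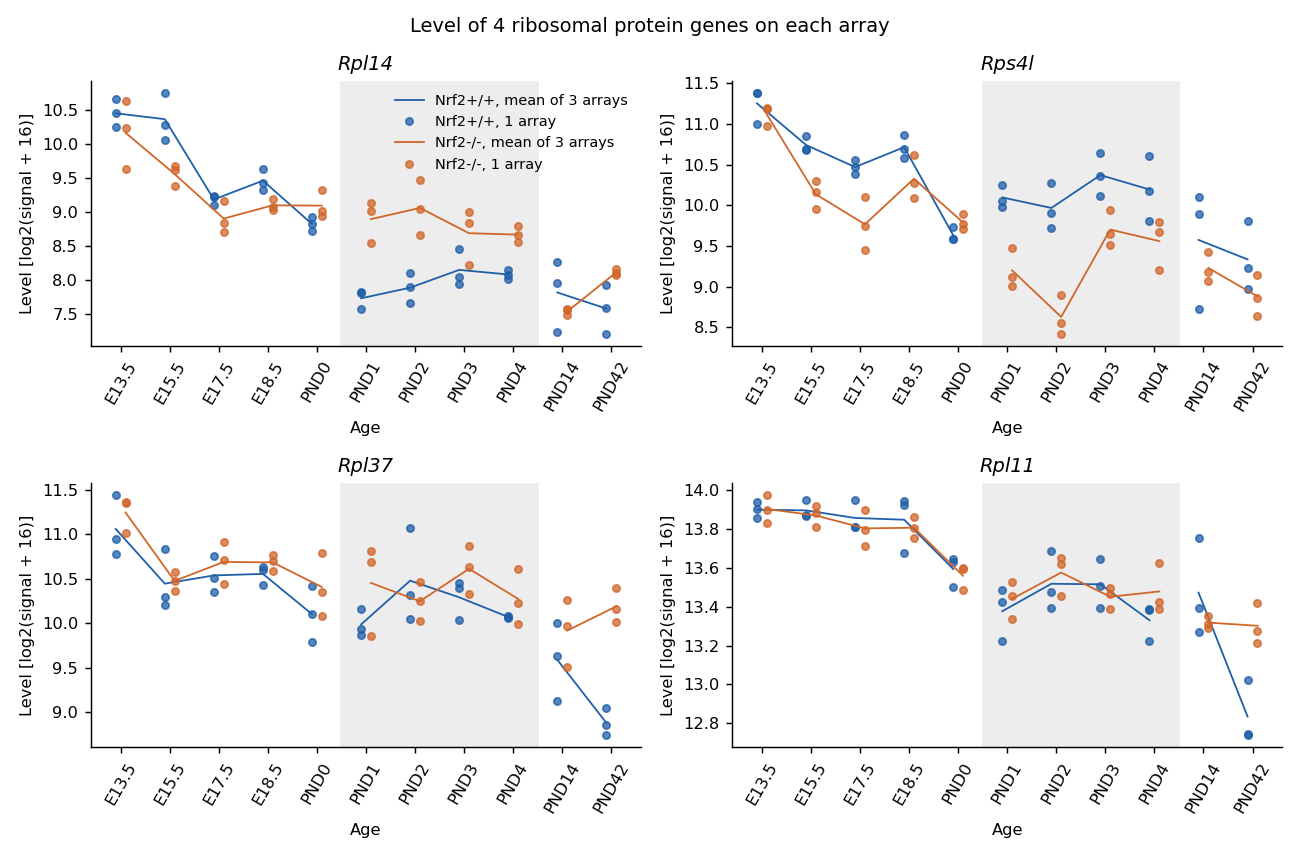
Levels, as log2(signal + 16), of Rpl14, Rps4l, Rpl37 and Rpl11 on each array by age, with lines through the means of 3 arrays, in wild type (blue) and in the knockout (orange); lines are broken at the grey band of PND1 to PND4, which was scaled apart before deposit. Rpl14 is higher and Rps4l lower in the knockout within the grey band, and the 3 knockout values of Rpl37 and of Rpl11 lie above the wild-type ones at PND42.

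The other genes called at these ages moved less. Rps25, again read from 1 dim probe set, was higher by 0.53 ± 0.09 (adjusted p = 1.6e-05). Its 12 knockout values ran from 8.39 to 9.31 and its 12 wild-type values from 7.94 to 8.5. Rps15 (0.13), Rpl19 (0.13 ± 0.03, adjusted p = 0.0017), Rplp0 (0.12 ± 0.03, adjusted p = 0.0012) and Rps3 (0.11 ± 0.03, adjusted p = 0.007) were higher and Rps18 (-0.13, adjusted p = 0.028) lower. On the deposited values Rps15 (-0.01), Rpl19 (-0.002) and Rplp0 (-0.005) turned to just below 0 and were not called. No bright gene, Rps3 included, was called higher on the deposited values or with array medians subtracted. Another probe set of Rps18 gave 0.73 (adjusted p = 0.018), so its direction depended on the probe set. The calls of Rps15 and Rps18 were lost without any one of 9 and 5 of the 24 libraries.

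The liver markers moved with genotype at these ages. Of the 7 liver markers measured, 6 were lower in the knockout, with a median of -3.16, and the mean level ran from 5.0 to 14.00 over the 12 wild-type arrays and from 5.08 to 11.11 over the 12 knockout arrays. Leaving out the 11 libraries of the series with a mean over 8, of which 7 were wild type and 1 knockout at these ages, left 4 genes higher (Rpl14, Rplp0, Rps15 and Rps25) and 1 lower (Rps4l), against 3.53% and 5.14% of all genes. Rpl14 was then at 0.83 ± 0.15 (adjusted p = 2e-04) and Rps4l at -0.97 ± 0.15 (adjusted p = 4.5e-05). Both differences were thus of similar size without these libraries, though wild type then had only replicate 1 at PND1, PND2 and PND3.

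At single ages few genes were called. At E13.5 it was 1 higher and 0 lower (all genes 0.737% and 1.22%), at PND1 1 and 1 (1.78% and 0.764%), at PND2 4 and 1 (3.11% and 2.86%), at PND3 3 and 1 (4.08% and 6.73%) and at PND42 2 and 1 (3.18% and 1.62%). No gene was called at E15.5, E17.5, E18.5, PND0, PND4 or PND14. At PND14, leaving out wild-type replicate 1, 2 or 3 or knockout replicate 1 brought 1 to 2 lower and 0 to 1 higher. The share of all genes called was then 1.06% to 19.7%. At E18.5 and PND0, leaving out some single libraries brought 1 call, against up to 15.4% of all genes. Without the libraries high in liver markers, only replicate 1 of wild type was left at PND1, PND2 and PND3. Counts there are therefore not given, and whether the calls of these ages rest on those libraries was not settled. Rpl14 was called at PND1 (1.16 ± 0.21, adjusted p = 0.00055) and PND2 (1.17 ± 0.21, adjusted p = 0.00033). Rps4l was called at PND1 (-0.90 ± 0.22, adjusted p = 0.017), PND2 (-1.34 ± 0.22, adjusted p = 8.1e-05) and PND3 (-0.67 ± 0.22, adjusted p = 0.048), and the calls at PND1 and PND3 were lost without some single libraries, at adjusted p up to 0.086 and 0.22.

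Rpl19 (0.21), Rps3 (0.21) and Rplp0 (0.18) were the other genes higher at PND2. The thymocyte markers had mean levels of 10.47, 7.02 and 9.43 in the knockout there and 5.66, 5.66 and 5.44 in wild type. Without replicate 1 or replicate 3 of the knockout, the libraries highest in them, or without replicate 2 of wild type, 1 gene was higher and 1 lower at PND2. The share of all genes called in either direction was then 2.03%, 5.14% and 3.41%. At PND3, Rplp0 (0.17), Rps25 (0.61 ± 0.18, adjusted p = 0.02) and Rpl3l were higher. The call of Rpl19 was lost without replicate 2 of wild type or replicate 1 or 3 of the knockout at PND2, and that of Rps25 without replicate 3 of either genotype at PND3. Rpl3l stood at 4.96, 4.22 and 4.57 in wild type and at 4.15, 9.40 and 6.23 in the knockout, so the difference of 2.01 ± 0.58 (adjusted p = 0.02) rested on the library at 9.40. That library also had the highest mean level of skeletal and heart muscle markers, 12.10 against 9.69 and 10.14 in the other 2 and 9.21 to 9.45 in wild type, and their part in the value was not tested. Without it the difference was 0.60 and was not called (adjusted p = 0.55). The call was also lost without replicate 2 or replicate 3 of wild type.

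At PND42, Rpl37 was at 8.85, 9.05 and 8.74 in wild type and at 10.01, 10.39 and 10.16 in the knockout, higher by 1.31 ± 0.23 (2.48-fold; adjusted p = 6.7e-05). Rpl11 was at 12.74, 13.02 and 12.74 and at 13.42, 13.27 and 13.21, higher by 0.47 ± 0.09 (1.38-fold; adjusted p = 0.00049). Neither pair of groups overlapped, and Rpl37 was read from only 1 probe set, a dim one. The ratio of the 3′ to the 5′ actin control probe sets did not overlap between the genotypes at this age either, at 1.46, 1.46 and 1.5 in wild type and 1.71, 2.01 and 1.90 in the knockout, and its part in these differences was not tested. Rpl7a, a large-subunit protein, was at 14.34, 14.21 and 14.29 and at 14.11, 13.99 and 13.91, lower by 0.28 (adjusted p = 0.0013), but at 0.05 on the deposited values and 0.08 with array medians subtracted. At E13.5 Rps20, a small-subunit protein, was at 14.42, 14.30 and 14.41 and at 14.53, 14.75 and 14.63 (0.26 ± 0.06, adjusted p = 0.013), but at -0.26 on the deposited values, and the call was lost without replicate 2 of either genotype.

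**Figure D5:**
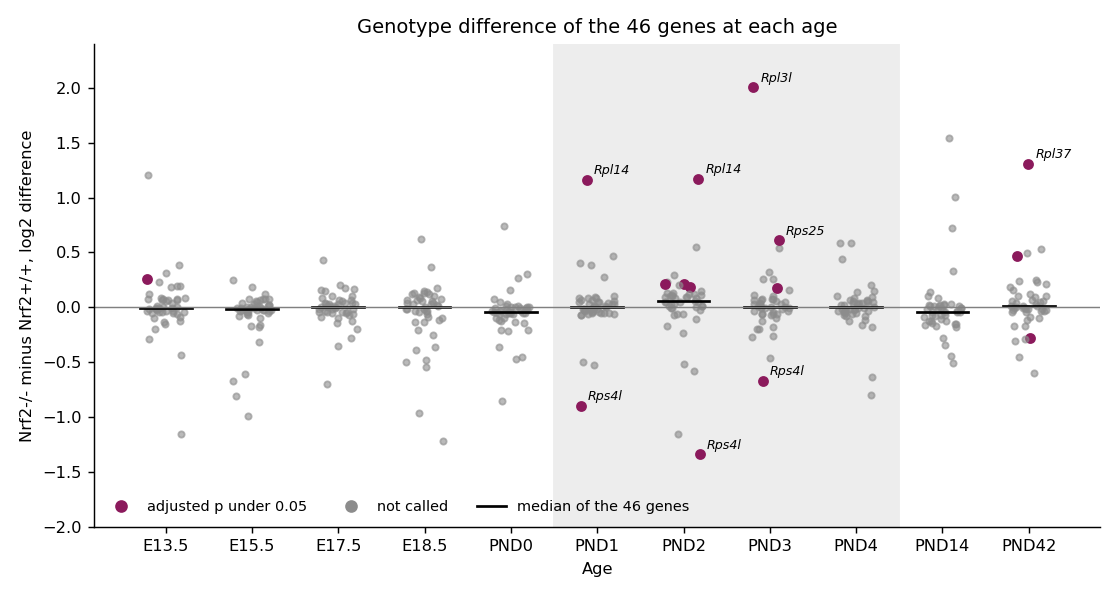
Knockout minus wild type for the 46 genes at each age, as log2 differences; large purple points passed an adjusted p of 0.05, small grey points did not, and bars are medians over the 46 genes, which stay within 0.06 of 0 at every age. Named points are called genes more than 0.6 from 0: Rpl14, Rps4l, Rps25 and Rpl3l at PND1 to PND3 and Rpl37 at PND42.

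The counts at the first and the last age depended on the scaling. On the deposited values 20 genes were lower and 1 higher in the knockout at E13.5, against 1.39% and 0.489% of all genes, with a median of -0.38. At PND42 16 were higher and 0 lower, against 2.76% and 1.24%, with a median of 0.29. The share of summed signal did not overlap between the genotypes at either age, and it did not overlap at E15.5, E17.5 or PND14 either. Rpl37 and Rpl11 at PND42 were called under each of the 3 scalings.

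Whether the genotype difference varied with age was tested with an F test. Over the 7 ages 6 of the 46 genes were called, against 28.2% of all genes. They were Rpl27a (adjusted p = 2e-04), Rps20 (adjusted p = 0.0021), Rpl7a (adjusted p = 0.0047), Rpl11 (adjusted p = 0.0061), Rpl14 (adjusted p = 0.011) and Rpl37 (adjusted p = 0.024). On the deposited values 34 were called, against 24.2%, and with array medians subtracted 32, against 25.8%. Over PND1 to PND4 the F test called 0 of the 46, against 4.12% of all genes, and the smallest adjusted p was that of Rpl3l at 0.056.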

How the data were processed

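The authors deposited a linear intensity for every probe set of the 66 arrays. The submitters' processing notes name GCOS, and the version, algorithm and scaling target are not given in the sources used here. Of the probe sets, 64 controls were left out, and 34945 had 1 gene symbol, 932 several and 9160 none. A pseudocount of 16 was added before log2, which understates changes of dim genes. The model (limma 3.58.1, R 4.3.3) had empirical Bayes moderation with an intensity trend and 44 residual degrees of freedom; p-values are two-sided and adjusted over all probe sets, and all groups shared the estimate of spread, so an SE can understate unlike libraries. An exact permutation test of 3 against 3 cannot go below 0.1. The number of arrays limits the precision.

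The members and gene lists were chosen with earlier results of these data known. Named were the largest called changes of each comparison, the members of paralog pairs and of the stalk, genes with known roles, the extremes of likeness and of probe set disagreement, and list members. Same-numbered samples of an age did not deviate together (over 0.1 in 2 of 33 pairs), so numbers were not taken as pairs. Scalings, pseudocounts, filters, variance models, probe set choices and single libraries were varied, and the libraries high in liver markers were left out together after seeing the data. The model was tested on simulated data. Figures used matplotlib 3.10.9 in Python 3.11.15.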

Additional observations from a re-analysis of the deposited data

Results flagged for a closer look

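The genotype difference of 6 genes differed between the 7 ages by the F test of that dependence: Rpl27a (adjusted p = 2e-04), Rps20 (adjusted p = 0.0021), Rpl7a (adjusted p = 0.0047), Rpl11 (adjusted p = 0.0061), Rpl14 (adjusted p = 0.011) and Rpl37 (adjusted p = 0.024), each from the limma model. The change between 2 ages differed between the genotypes, knockout minus wild type, in the following tests of the difference itself. Shares of all genes called higher and lower were 0.286% and 0.198% from E13.5 to E15.5 and 3.18% and 1.3% from E13.5 to PND42. They were 6.39% and 10.1% from E18.5 to PND0, and 6.89% and 3.13% from PND0 to PND14. From PND14 to PND42 they were 0.929% and 0.429%, and from PND2 to PND3 0.319% and 1.14%. For Rpl27a the difference was -2.20 from E13.5 to E15.5, -1.81 from E13.5 to PND42 and 1.87 from PND0 to PND14. From E13.5 to PND42 it was -0.34 for Rpl7a, 0.46 for Rpl11 and 1.12 for Rpl37. It was -0.83 for Rps25 from E18.5 to PND0, 0.62 for Rpl11 from PND14 to PND42 and 3.16 for Rpl3l from PND2 to PND3, the last resting on 1 knockout PND3 library. The call of Rps25 was lost without replicate 1 or 3 of E18.5 or 2 of PND0 in the knockout. It was also lost without replicate 1 of wild-type E18.5. That of Rpl27a from E13.5 to E15.5 was lost without replicate 2 of E13.5 or 1 of E15.5 in the knockout. The same call was lost without replicate 1 of E13.5 or 3 of E15.5 in wild type.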

How the results depend on the processing

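Fitted to the deposited values, the median over the 46 genes was -0.90 for the wild-type change from E13.5 to PND42 and -0.32 for that of the knockout, -0.18 for the knockout change from PND1 to PND4, -0.066 for the genotype difference over 7 ages and -0.077 over PND1 to PND4. Calls numbered 0 for wild type from PND1 to PND4, 5 for genotype over PND1 to PND4, 46 summed over the 11 ages (15 in the main analysis) and 34 for the F test over 7 ages. Single genes that reversed there were Rps20 from E13.5 to E15.5 (-0.10) and between genotypes at E13.5 (-0.26), Rps15 (-0.0097), Rpl19 (-0.0018) and Rplp0 (-0.0047) over PND1 to PND4, and Rpl7a at PND42 (0.053). With array medians subtracted, medians were -0.98 for wild type from E13.5 to PND42 and, from PND1 to PND4, -0.12 in wild type and -0.14 in the knockout. Calls were then 0 and 0 for those last steps, 2 and 3 for genotype over 7 ages and PND1 to PND4, 52 over the wild-type steps (32 in the main analysis, and 50 in the knockout), 26 over the 11 ages and 32 for the F test, and Rps20 (-0.12, and -0.19 at E13.5) and Rpl7a (0.077) reversed. The cause was not tested.

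The filter on dim probe sets gave 2 calls for the knockout from PND1 to PND4 and 27 over the 11 ages, and the fit with no intensity trend gave 9 over the ages. Array weights gave 50 and 76 calls over the wild-type and knockout steps, 39 over the ages, 14 for the F test over 7 ages and 1 over PND1 to PND4. Counts summed over steps or ages in this section, and all counts of this paragraph, have no share of all genes beside them. Whether they followed that share was not tested. With probe sets whose identifiers lack a suffix, the medians from E13.5 to PND42 were -0.44 in wild type and -0.57 in the knockout, and Rps20 (-0.48, and -0.24 at E13.5) and Rps18 (0.025 from PND14 to PND42, 0.73 over PND1 to PND4) reversed. With the mean of a gene's probe sets these medians were -0.59 and -0.61, those from PND1 to PND4 -0.046 and -0.057, the wild-type count there 6 and the F test over PND1 to PND4 1, and Rps20 (-0.15) and Rps18 (0.16) reversed. Without the libraries high in liver markers, chosen after seeing the data, wild type kept 1 array each at PND1, PND2 and PND3. Counts that use these ages are not given here. Of 44 named gene results some lost their call, which cannot be told apart from the loss of arrays.

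Leaving out 1 library at a time gave 33 to 35 calls for wild type and 29 to 34 for the knockout from E13.5 to PND42, 4 to 6 and 6 to 8 for genotype over 7 ages and PND1 to PND4, 1 to 2 and 1 for the changes from PND1 to PND4, 24 to 35 and 41 to 55 over the steps, 11 to 26 over the ages (26 without replicate 2 of wild-type PND14), and 5 to 9 and 0 to 1 for the F tests. Replicate numbers did not pair the samples (2 of 33 same-age pairs correlated over 0.1). With the replicate number as a block, 35 genes were called in wild type from E13.5 to PND42, and 43 of the 44 named results kept their call. The medians from E13.5 to PND42 ran from -0.34 to -0.29 in wild type and from -0.44 to -0.37 in the knockout. The number of arrays and the top of the signal range limit what these values resolve.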
